A study of Homo sapiens with 12 samples.

Results

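The 10 genes described here write, read or relay methylation of lysine 9 of histone H3 (H3K9), a residue that KDM3A demethylates. Methylation itself was not measured. They are the methyltransferase genes EHMT1, EHMT2, SUV39H1, SUV39H2 and SETDB1, the SETDB1 cofactor gene ATF7IP, the heterochromatin protein 1 (HP1) genes CBX1, CBX3 and CBX5, and the corepressor gene TRIM28. A probe set was taken as theirs where the platform annotation gave it that gene alone. All 10 genes had a probe set and all 10 were tested, among 14061 genes in all. They held 27 probe sets, of which 25 passed a filter on dim signal (a mean signal of at least 33.6 over 12 arrays), and each gene is described by the probe set of highest mean unless another is named.

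Methyl groups on H3K9 mark silent chromatin. SUV39H1 and SUV39H2 place the dense trimethylation of pericentric repeats, EHMT1 (GLP) and EHMT2 (G9a) work as a pair that mainly dimethylates H3K9 in euchromatin, and SETDB1, stabilised by ATF7IP, is brought by TRIM28 (KAP1) to retroelements and zinc finger targets. The HP1 proteins CBX1 (HP1 beta), CBX3 (HP1 gamma) and CBX5 (HP1 alpha) bind the methylated lysine through their chromodomain and recruit further silencing factors.

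Transcripts were measured on 12 Affymetrix U133 Plus 2.0 arrays of the bladder carcinoma line SW780, grown in Leibovitz L-15 medium, and the lung adenocarcinoma line A549, grown in RPMI1640. Each line received siKDM3A, which targets the H3K9 demethylase KDM3A, or a control siRNA, siFFluc or siEGFP, named after firefly luciferase and a green fluorescent protein. All siRNAs were used at 100 nM with lipofectamine 2000 for 24 h, so every array comes from transfected cells and the study has no untransfected group. The 6 groups of 2 arrays were SW780 with siKDM3A, SW780 with siFFluc, SW780 with siEGFP, A549 with siKDM3A, A549 with siFFluc and A549 with siEGFP. Values are MAS5 signals on a linear scale. The fold changes are log2 differences of signal + 16, with standard errors (SE), and a change was called at an adjusted p under 0.05 in limma's moderated test with Benjamini-Hochberg adjustment over all genes tested. Whether replicates came from separate cultures is not in the labels, so all p-values rest on array-to-array spread that may be only technical.

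KDM3A had signals of 196.8 and 223.0 on the siKDM3A arrays of SW780, against 359.1 to 432.6 on its 4 control arrays. In A549 it had 692.5 and 712.4 on the siKDM3A arrays, against 1299.7 to 1518.6 on the control arrays. Median signal lay between 50.3 and 59.1 on all arrays and differed by siRNA. In A549 it was 53.1 and 51.9 with siKDM3A, below the controls at 57.4 to 59.1. In SW780 it was 58.1 and 54.3 with siKDM3A, above the controls at 50.3 to 54.2. The least alike replicates were the siFFluc arrays of SW780, whose log2 signals differed with an SD of 0.483 over probe sets, against 0.359 to 0.437 in the other 5 pairs. Each of these 2 arrays was left out in turn, and the calls that ended or arose are given beside the results. Of 10 urothelial markers, whose summed signal was 31320 to 39290 in SW780 and 3587 to 4162 in A549, UPK3A was near the floor in SW780, at 9.3 or less. Lung markers were near absent in A549, with a summed signal of 241.3 to 463.4 and NKX2-1 at 26.0 or less, so the lung origin of that line rests on its label. The leukocyte marker sum stayed at 127.6 to 322.9 on all arrays.

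Promoter sequences are shown for the 3 genes on which the results below turn, SUV39H2 for its change with siKDM3A and CBX5 and SUV39H1 for their differences between lines. They run from 250 bases before to 50 after a transcription start and come from RefSeq, build GRCh38.p14, where 9 of the 10 genes matched with 18 starts in all. TRIM28 had no entry. Capitals mark the CHR element TTTGAA, which recruits repressors of cell cycle genes outside division, the CCAAT box, which is bound by NF-Y, and the YY1 motif AAGATGGCG. Both strands were searched for these and for the E2F motifs TTTCCCGC and TTTGGCGC, and no match overlapped another in the windows shown.
SUV39H2, chr10:14878616-14878915, plus strand: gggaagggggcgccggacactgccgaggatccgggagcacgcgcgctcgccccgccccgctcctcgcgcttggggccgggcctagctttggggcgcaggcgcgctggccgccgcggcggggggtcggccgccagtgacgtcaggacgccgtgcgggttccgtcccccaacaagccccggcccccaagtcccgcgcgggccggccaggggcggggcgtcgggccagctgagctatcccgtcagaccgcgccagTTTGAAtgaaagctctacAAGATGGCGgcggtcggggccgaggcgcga
CBX5, chr12:54280073-54280372, minus strand: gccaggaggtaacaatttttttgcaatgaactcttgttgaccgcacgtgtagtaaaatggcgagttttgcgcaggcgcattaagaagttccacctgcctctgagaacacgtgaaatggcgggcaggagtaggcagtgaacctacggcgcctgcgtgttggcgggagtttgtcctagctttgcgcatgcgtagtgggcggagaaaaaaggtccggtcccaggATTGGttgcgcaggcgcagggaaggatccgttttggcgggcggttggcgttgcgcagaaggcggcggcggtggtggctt
SUV39H1, chrX:48696484-48696783, plus strand: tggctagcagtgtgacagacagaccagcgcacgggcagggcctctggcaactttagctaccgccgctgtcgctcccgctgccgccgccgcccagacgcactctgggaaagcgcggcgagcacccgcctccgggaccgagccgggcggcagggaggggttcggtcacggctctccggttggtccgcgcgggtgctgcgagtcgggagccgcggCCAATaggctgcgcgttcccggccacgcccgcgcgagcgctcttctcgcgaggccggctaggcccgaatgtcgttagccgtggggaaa

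The SUV39H2 window held a CHR element at bases 253 to 258 and a YY1 motif at bases 271 to 279, both just past the start site at base 251. Of 35116 RefSeq promoters of this length, 15.2% held a CHR element and 1.75% the YY1 motif. Among the 18 windows of the 9 matched genes, the CHR element was in 4, of SUV39H2 and ATF7IP. The YY1 motif was in 1, of SUV39H2. The CBX5 window had a CCAAT box on the opposite strand at bases 222 to 226 and the SUV39H1 window one on its own strand at bases 213 to 217. That motif was in 34.6% of all promoters and in 9 of the 18 windows, of ATF7IP, CBX5 and SUV39H1. TTTCCCGC was in none of the 18 windows of these genes and in 1.63% of all promoters, and TTTGGCGC was in 1 window, of CBX3, and in 0.652% of all. The SUV39H2 window had 44 CpG sites and the SUV39H1 window 42, against a median of 14 over all promoters. A second SUV39H1 window, of a start further upstream, had 7 CpG sites and none of these motifs. CBX5 had 25 in the window shown and 4 and 6 in the windows of 2 downstream starts, each with a CCAAT box. These matches describe the letters of the windows, and no binding was measured.

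After siKDM3A, SUV39H2 was the 1 gene of the 10 whose change was called. In A549, 1 of the 10 genes was called, higher, while 11.7% of all genes tested were called, 5.33% of all as higher and 6.35% as lower. With every array scaled to the same median those shares were 15.7% and 2.92%. Because each array holds RNA of a whole culture, fewer cells with a transcript and less of it per cell cannot be told apart. In SW780, 0 of 10 were called in limma, with 3 at an unadjusted p under 0.05, against 11.8% of all genes (5.68% higher and 6.15% lower, or 2.01% and 8.88% under the median scaling). With both lines averaged, SUV39H2 alone was called, 1 of 10 against 18.2% of all genes (8.86% higher). CBX3 joined it without SW780 siFFluc replicate 1, at 0.22. Without replicate 2, EHMT1 at -0.22, CBX5 at 0.24 and TRIM28 at -0.19 joined it. In both fits a larger share of all genes was called as well, and 1 siFFluc array was left in SW780. The median absolute log2 change of the 10 genes was 0.074 in SW780 and 0.11 in A549, against 0.18 over all genes in each line.

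**Figure D1:**
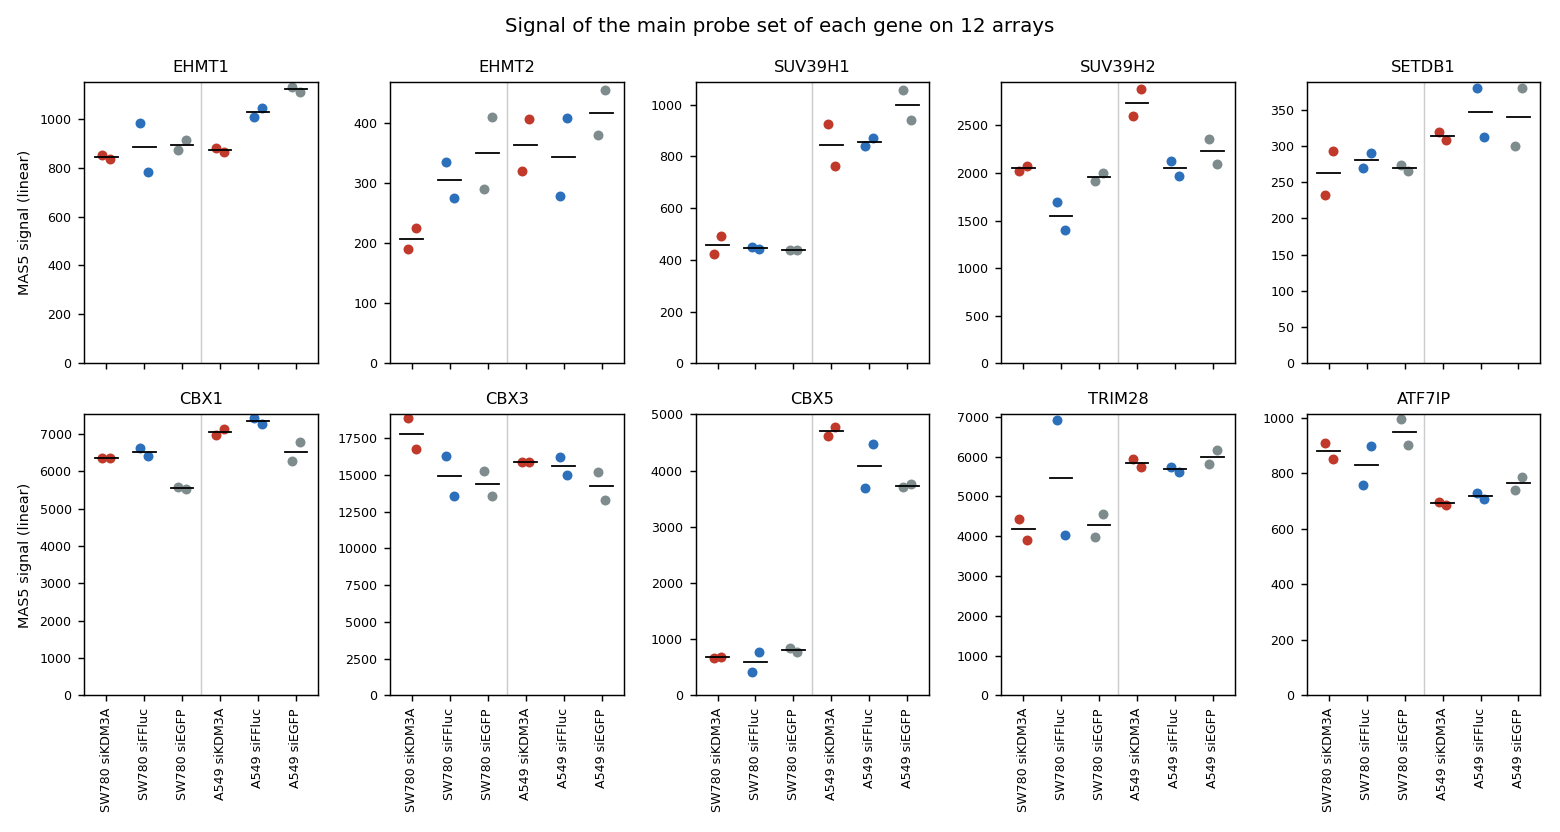
MAS5 signal (y axis, linear, starting at 0) of the main probe set of each gene on the 12 arrays, by line and siRNA (x axis). Points are arrays and bars the mean of 2. CBX5 and SUV39H1 are lower on every SW780 array than on every A549 array, as is SETDB1 by a narrow margin. SUV39H2 is higher on both siKDM3A arrays than on the controls of the same line.

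SUV39H2 had signals of 2598.1 and 2879.4 on the siKDM3A arrays of A549, against 2130.0 and 1971.2 with siFFluc and 2360.6 and 2095.3 with siEGFP. In SW780 it had 2023.4 and 2074.4 with siKDM3A, against 1691.8 and 1396.7 with siFFluc and 1913.9 and 2004.5 with siEGFP. Both siKDM3A arrays lay above all 4 control arrays in each line, in SW780 only just above the siEGFP arrays. Over all genes, both siKDM3A arrays lay above all controls for 17% of genes in A549 and 15.3% in SW780. SUV39H2 averaged 2739 ± 199 with siKDM3A and 2139 ± 163 in the controls of A549 (SD, n = 2 and 4 arrays), a log2 change of 0.36 ± 0.09 (SE, limma adjusted p = 0.0195). In SW780 it averaged 2049 ± 36.1 with siKDM3A and 1752 ± 271 in the controls (SD, n = 2 and 4 arrays), a log2 change of 0.24 ± 0.09 that was not called (limma adjusted p = 0.100). With both lines averaged it rose by 0.30 ± 0.06 (limma adjusted p = 0.00494). The test of a different response between the lines gave -0.12 ± 0.12 for SW780 minus A549 (limma adjusted p = 0.662).

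The size of the SUV39H2 change depended on the control siRNA. In SW780 the siFFluc arrays lay below the siEGFP arrays by 0.35 ± 0.10 on the log2 scale (limma adjusted p = 0.0645), which is more than siKDM3A differed from the pooled controls there. Against siEGFP alone, the change with both lines averaged was 0.18 (limma adjusted p = 0.118), and against siFFluc alone 0.41 (limma adjusted p = 0.00147). The call in A549 ended against siEGFP alone (limma adjusted p = 0.0939). It also ended without A549 siEGFP replicate 2, siFFluc replicate 2, siKDM3A replicate 1 or siKDM3A replicate 2, with limma adjusted p of 0.0593, 0.0613, 0.0603 and 0.231. Without SW780 siFFluc replicate 1 the change in SW780 was 0.31 and was called (limma adjusted p = 0.0187). The second SUV39H2 probe set (219262_at, a signal of 95.8 to 251.8) was not called, at 0.28 in A549 and 0.17 in SW780.

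SUV39H1, the paralogue of SUV39H2, was not called in either line. It had signals of 423.2 and 491.8 with siKDM3A in SW780, against 447.6 and 440.4 with siFFluc and 439.0 on both siEGFP arrays. In A549 it had 925.7 and 761.3 with siKDM3A, against 841.0 and 868.8 with siFFluc and 1054.2 and 940.5 with siEGFP. The siKDM3A arrays overlapped the controls in A549 and lay on either side of them in SW780. The log2 change was 0.046 ± 0.11 in SW780, with a 95% confidence interval of -0.18 to 0.27, and -0.13 ± 0.11 in A549, with an interval of -0.36 to 0.095.

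The pair EHMT1 and EHMT2 gave values below the controls in a different line each, and neither was called. EHMT1 had signals of 880.8 and 866.0 with siKDM3A in A549, against 1008.1 and 1043.9 with siFFluc and 1131.5 and 1110.4 with siEGFP. Both siKDM3A arrays were below all 4 controls, at 81.4% of their mean, as were 19.9% of all genes in A549. The log2 change was -0.29 ± 0.09 (limma adjusted p = 0.0574). In SW780 EHMT1 had 852.0 and 836.7 with siKDM3A, against 982.7 and 782.5 with siFFluc and 872.0 and 914.3 with siEGFP, which overlapped. The mean over the EHMT1 probe sets gave a value of the other sign in A549, 0.033.

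EHMT2 had signals of 189.3 and 225.0 with siKDM3A in SW780, against 335.2 and 275.1 with siFFluc and 290.2 and 408.5 with siEGFP. Here too both siKDM3A arrays lay below all controls, at 63.3% of their mean, as did 13.3% of all genes in SW780. The log2 change was -0.61 ± 0.19 (limma adjusted p = 0.0556), and its 95% interval ran from -1.02 to -0.20. In A549 EHMT2 had 319.9 and 405.9 with siKDM3A, against 278.4 and 407.7 with siFFluc and 378.7 and 453.6 with siEGFP. Replicates of EHMT2 differed from each other by as much as the groups did in A549, where the change was -0.051 ± 0.19. The difference between lines was -0.56 ± 0.27 and was not called (limma adjusted p = 0.293). The second kept EHMT2 probe set (207484_s_at), close to the floor of the filter, went the other way. It had 85.5 and 66.4 with siKDM3A in A549, against 19.5 and 41.0 with siFFluc and 19.0 and 35.3 with siEGFP. It was above all controls, as were 17% of all genes, but was not called, at 1.07 ± 0.34 (limma adjusted p = 0.0769 over probe sets). In SW780 it had 55.1 and 48.3 with siKDM3A, against 44.9 and 51.2 with siFFluc and 34.6 and 20.1 with siEGFP, at 0.37 ± 0.34. The mean of both EHMT2 probe sets was -0.12 in SW780 and 0.51 in A549. Both near misses crossed the threshold in some fits with 1 array fewer: EHMT1 in A549 without SW780 siFFluc replicate 1 or 2 (limma adjusted p = 0.0107 and 0.0102), and EHMT2 in SW780 without A549 siFFluc replicate 1 (0.0472) or 2 (0.0480), SW780 siFFluc replicate 2 (0.0379) or SW780 siEGFP replicate 1 (0.0412).

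Neither SETDB1 nor its cofactor ATF7IP was called on its main probe set. SETDB1 had signals of 232.3 and 293.6 with siKDM3A in SW780, against 264.8 to 290.8 on the 4 controls, and 319.5 and 307.8 with siKDM3A in A549, against 299.6 to 380.3. Its log2 change was -0.068 ± 0.15 in SW780 and -0.12 ± 0.15 in A549. ATF7IP had 908.3 and 851.8 with siKDM3A in SW780, against 758.2 to 995.6 on the controls, and 696.7 and 685.4 with siKDM3A in A549, against 707.8 to 787.6. The A549 siKDM3A arrays lay below all controls for ATF7IP, as for 19.9% of all genes. The log2 change was -0.098 ± 0.092 and was not called (limma adjusted p = 0.569). Another ATF7IP probe set (231825_x_at) had 824.5 and 825.6 with siKDM3A in SW780, against 503.9 and 493.5 with siFFluc and 723.1 and 684.6 with siEGFP. It was higher by 0.47 ± 0.12 (limma adjusted p = 0.0261 over the 32768 kept probe sets), and the siFFluc arrays were the lowest. In A549 its change was -0.21 ± 0.12 and not called. A further ATF7IP probe set (225917_at) had 282.4 and 259.3 with siKDM3A in SW780, below the controls at 296.6 to 341.8, as were 13.3% of all genes. Its change was -0.20 ± 0.13 in SW780 and -0.29 ± 0.13 in A549, and neither was called.

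**Figure D2:**
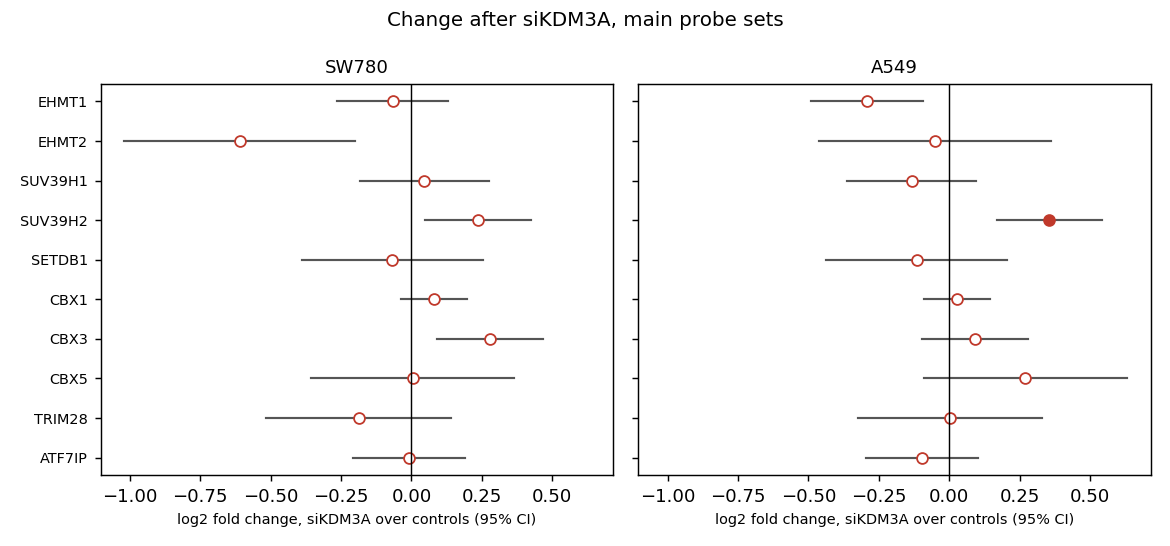
Log2 fold change of siKDM3A over the controls (x axis) for the main probe set of each gene (y axis) in SW780 and A549, with 95% confidence intervals from limma. The filled point, SUV39H2 in A549 at 0.36, was called and open points were not. The EHMT1 interval in A549 and the EHMT2, CBX3 and SUV39H2 intervals in SW780 exclude 0 before adjustment.

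Among the main probe sets of the readers, only that of CBX3 had both siKDM3A arrays above all controls in SW780, as did 15.3% of all genes. The CBX5 probe sets 209715_at, 242069_at and 231862_at lay above all controls there too. CBX3 had 18832.1 and 16725.6 with siKDM3A, against 16266.7 and 13587.0 with siFFluc and 15235.0 and 13556.8 with siEGFP. The log2 change was 0.28 ± 0.09 (limma adjusted p = 0.0554), and 0.34 (limma adjusted p = 0.0155) without SW780 siFFluc replicate 1. In A549 CBX3 had 15854.1 and 15877.8 with siKDM3A, against 16207.2 and 14959.9 with siFFluc and 15158.4 and 13319.7 with siEGFP, a change of 0.093 ± 0.087. A second bright CBX3 probe set (201091_s_at) had 10053.7 and 9136.4 with siKDM3A in SW780, against 7716.6 and 7079.0 with siFFluc and 7922.6 and 8227.6 with siEGFP. It was called in SW780 at 0.31 ± 0.09 (limma adjusted p = 0.0420 over probe sets) and with both lines averaged at 0.22 ± 0.06 (limma adjusted p = 0.0272). The call in SW780 ended without SW780 siFFluc replicate 2, at 0.28 (limma adjusted p = 0.0587). The neighbouring gene HNRNPA2B1 starts 697 bases from CBX3 on the other strand, and its change was -0.047 ± 0.088 in SW780 and -0.012 ± 0.088 in A549.

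CBX1 had the smallest SE of the 10 genes and was not called against the pooled controls. It had 6363.3 and 6346.6 with siKDM3A in SW780, against 6614.2 and 6407.3 with siFFluc and 5569.7 and 5530.6 with siEGFP. In A549 it had 6968.6 and 7138.5 with siKDM3A, against 7425.6 and 7264.7 with siFFluc and 6270.8 and 6770.4 with siEGFP. In each line the siKDM3A arrays lay between the control siRNAs, below both siFFluc arrays and above both siEGFP arrays. The change from pooled controls was 0.080 ± 0.054 in SW780 and 0.028 ± 0.054 in A549. Against siEGFP alone CBX1 was called with both lines averaged, at 0.15 (limma adjusted p = 0.0378), where SUV39H2 was not. The siFFluc arrays were above the siEGFP arrays by 0.23 ± 0.06 in SW780 (limma adjusted p = 0.0517) and by 0.17 ± 0.06 in A549 (limma adjusted p = 0.235).

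The CBX5 probe sets differed in the direction of their change. On the brightest (226085_at) it had 665.6 and 683.0 with siKDM3A in SW780, against 416.4 and 763.4 with siFFluc and 837.2 and 764.5 with siEGFP, a change of 0.0041 ± 0.17. In A549 it had 4616.9 and 4781.8 with siKDM3A, against 3695.1 and 4469.4 with siFFluc and 3703.9 and 3757.7 with siEGFP. The A549 siKDM3A arrays lay above all controls, as for 17% of all genes. The change of 0.27 ± 0.17 was not called (limma adjusted p = 0.355). It was called without SW780 siFFluc replicate 1 or 2 (limma adjusted p = 0.0301 and 0.0310), arrays of the other line that enter only through the shared estimate of spread.

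Of the other 5 CBX5 probe sets, 3 were called after siKDM3A, in opposite directions. Probe set 209715_at had 383.3 and 385.9 with siKDM3A in SW780, against 237.5 and 267.9 with siFFluc and 219.7 and 272.4 with siEGFP, a rise of 0.60 ± 0.11 (limma adjusted p = 0.00399 over probe sets). Probe set 212126_at had 138.7 and 111.2 with siKDM3A in SW780, against 200.8 and 191.1 with siFFluc and 165.1 and 172.5 with siEGFP, which fell by 0.50 ± 0.12 on the log2 scale (limma adjusted p = 0.0195 over probe sets). In each case the siKDM3A arrays did not overlap the controls. On the main probe sets of all genes, 15.3% lay above and 13.3% below all controls in SW780. With both lines averaged, 209715_at was higher by 0.44 ± 0.07 (limma adjusted p = 0.00161) and 212126_at lower, at -0.36 ± 0.08 (limma adjusted p = 0.0103).

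Probe set 242069_at had 772.9 and 831.7 with siKDM3A in SW780, against 500.7 and 504.5 with siFFluc and 728.0 and 663.0 with siEGFP. In A549 it had 771.0 and 797.7 with siKDM3A, against 396.9 and 434.3 with siFFluc and 673.3 and 622.9 with siEGFP. The order was the same in each line, siKDM3A highest, siEGFP next and siFFluc lowest, with no overlap. The share of all probe sets in that order was not computed. It was called after siKDM3A in SW780, at 0.43 ± 0.09 (limma adjusted p = 0.0137), and in A549, at 0.58 ± 0.09 (limma adjusted p = 0.00178). The siFFluc arrays were below the siEGFP arrays by as much, at -0.45 ± 0.11 in SW780 (limma adjusted p = 0.0346) and -0.62 ± 0.11 in A549 (limma adjusted p = 0.00753). The SW780 value between the control siRNAs was not called without siFFluc replicate 1, at -0.45 (limma adjusted p = 0.0911). The calls of 209715_at, 212126_at and 242069_at after siKDM3A in SW780, and of ATF7IP 231825_x_at, held when either siFFluc array was left out. Probe sets of 1 gene can match different transcript ends, and the part of each transcript they match was not analysed here. Over all 25 kept probe sets of the 10 genes, 5 were called after siKDM3A in SW780 and 2 in A549, against 7.67% and 8.08% of all kept probe sets. Averaged over both lines, 5 of the 25 were called, against 12.8% of all kept probe sets.

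**Figure D3:**
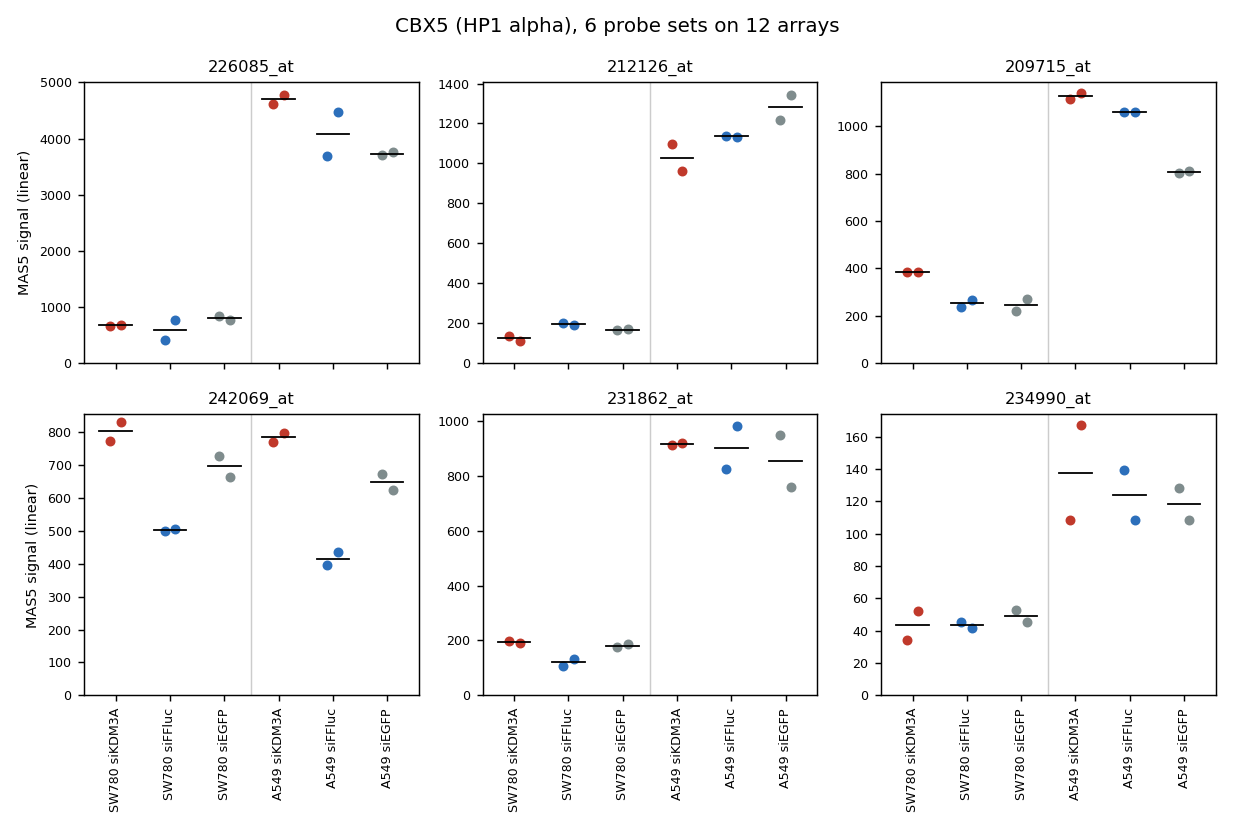
MAS5 signal (y axis, linear, starting at 0) of the 6 CBX5 probe sets on the 12 arrays, by line and siRNA (x axis), with points for arrays and bars for the mean of 2. On 5 probe sets every SW780 array lies below every A549 array, while 242069_at is alike in the lines and lowest with siFFluc.

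TRIM28 was not called in either line, and its value in SW780 moved with 1 array. In SW780 it had 4429.7 and 3914.8 with siKDM3A, against 6913.0 and 4026.3 with siFFluc and 3982.8 and 4563.2 with siEGFP. In A549 it had 5939.9 and 5743.4 with siKDM3A, against 5739.3 and 5620.5 with siFFluc and 5811.4 and 6159.4 with siEGFP. SW780 siFFluc replicate 1, at 6913.0, stood above the other 11 arrays of both lines. The change in SW780 was -0.19 ± 0.15 with that array and 0.0074 without it, and -0.38 (limma adjusted p = 0.00418) without its replicate 2. In A549 the change was 0.0029 ± 0.15.

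None of the 10 genes was called for a different response between the lines, 0 of 10 in limma against 2.75% of all genes, with 0 at an unadjusted p under 0.05. Of all genes 1.78% were higher and 0.974% lower, or 0.839% and 12.9% under the median scaling. Without SW780 siFFluc replicate 1, CBX5 was called for that difference at -0.48 (limma adjusted p = 0.0330), and without replicate 2, TRIM28 at -0.38 (limma adjusted p = 0.0421). The control siRNAs were not called apart either. For siFFluc against siEGFP, 0 of 10 genes were called in SW780 in limma, with 3 at an unadjusted p under 0.05 (SUV39H2, CBX1 and CBX5), against 5.57% of all genes (2.97% higher and 2.6% lower, or 1.27% and 1.66% under the median scaling). In A549, 0 of 10 were called in limma, with CBX1 alone at an unadjusted p under 0.05, against 2.92% of all genes. On CBX5 the siFFluc arrays of SW780 disagreed with each other, at 416.4 and 763.4. With 1 of them left out, the siFFluc arm is a single array assumed to vary like the other groups, so a call then rests on that array. SUV39H2 was called without replicate 1, at -0.48 (limma adjusted p = 0.0228), and without replicate 2 so were CBX1 at 0.25 (0.0312), CBX5 at -0.92 (4.89e-04) and TRIM28 at 0.70 (0.00114).

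More of the 10 genes were called between the lines than between siRNAs. SW780 was grown in Leibovitz L-15 and A549 in RPMI1640, so line and medium cannot be told apart. Between the control arrays of SW780 and of A549, 8 of the 10 genes were called, 1 higher and 7 lower in SW780, against 68.9% of all genes (30.1% higher and 38.8% lower). Under the median scaling more genes were higher than lower in SW780, 35.7% and 31.8%. The median log2 difference of the 10 genes was -0.28 and that of all genes -0.11.

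CBX5 was the gene furthest apart. Its control arrays read 416.4, 763.4, 837.2 and 764.5 in SW780, against 3695.1, 4469.4, 3703.9 and 3757.7 in A549, with no overlap. It averaged 695 ± 189 in SW780 and 3907 ± 376 in A549 (SD, n = 4 arrays each), 0.176-fold on the fitted scale (log2 -2.51 ± 0.14, limma adjusted p = 2.15e-09). Including siKDM3A, the A549 groups came first in the order siKDM3A, siFFluc and siEGFP, and the SW780 groups after them in the order siEGFP, siKDM3A and siFFluc. Neighbours within a line lay less than 1 pooled SD apart, and the gap between the lines was 8.42 pooled SD. Of the 6 CBX5 probe sets, 5 were lower in SW780, at -2.63 (212126_at), -2.51 (226085_at), -2.45 (231862_at), -1.83 (209715_at) and -1.14 (234990_at), all called over probe sets. Over all kept probe sets 60.5% were called between the lines. The exception among those of CBX5 was 242069_at, at 0.18 ± 0.08 (limma adjusted p = 0.0520).

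SUV39H1 read 447.6, 440.4, 439.0 and 439.0 on the control arrays of SW780, against 841.0, 868.8, 1054.2 and 940.5 in A549. It averaged 442 ± 4.12 in SW780 and 926 ± 95.1 in A549 (SD, n = 4 arrays each), 0.487-fold on the fitted scale (log2 -1.04 ± 0.09, limma adjusted p = 1.59e-07). The 3 A549 groups lay above the 3 SW780 groups with a gap of 7.68 pooled SD, and within SW780 neighbours lay less than 1 pooled SD apart. CBX5 and SUV39H1 were called in every alternative run for them, 24 and 23 in number.

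The other called differences were small, between 0.20 and 0.30 on the log2 scale in either direction. CBX1 was lower in SW780 by 0.20 ± 0.04 (limma adjusted p = 0.00114), EHMT1 by 0.27 ± 0.07 (0.00529) and SUV39H2 by 0.30 ± 0.07 (0.00213). SETDB1, at -0.30 ± 0.12 (limma adjusted p = 0.0436), and TRIM28, at -0.30 ± 0.12 (0.0472), were closest to the threshold. SETDB1 read 232.3 to 293.6 over all SW780 arrays and 299.6 to 380.3 over all A549 arrays. Its second probe set (214197_s_at) was also lower in SW780, at -0.54 ± 0.22 (limma adjusted p = 0.0494 over probe sets). With 1 value per gene, SETDB1 passed in 10 of 24 alternatives and TRIM28 in 8 of 24. The SETDB1 call ended when either siFFluc array of SW780 was left out (limma adjusted p = 0.0931 without replicate 1 and 0.0507 without replicate 2). TRIM28 was at -0.49 (limma adjusted p = 1.69e-05) without SW780 siFFluc replicate 1 and at -0.10 (0.160) without its replicate 2. ATF7IP was the 1 gene higher in SW780, by 0.25 ± 0.07 (limma adjusted p = 0.00893), where its control arrays read 758.2 to 995.6 against 707.8 to 787.6 in A549. EHMT2, at -0.20 ± 0.15 (limma adjusted p = 0.271), and CBX3, at -0.025 ± 0.071 (0.769), were not called on their main probe sets. A dimmer CBX3 probe set (230998_at) was called lower in SW780 (limma adjusted p = 0.00109 over probe sets). Its control arrays read 28.0 to 84.2 there, against 106.5 to 153.0 in A549. The bright CBX3 probe set 201091_s_at was not called, at -0.17 ± 0.07 (limma adjusted p = 0.0519 over probe sets). With 1 value per gene, CBX3 passed in 2 of 24 alternatives, quantile normalization and the mean of all kept probe sets.

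Scaling bears on the small differences. Setting all arrays to the same median moved the median of all genes by over 0.1, to 0.031 between the lines and to 0.125 after siKDM3A in A549, against -0.11 and -0.020 as deposited. Under it 3 of the 8 genes, SUV39H1, CBX5 and ATF7IP, remained called between the lines, while CBX3 turned to 0.13. SUV39H2 was higher after siKDM3A in A549 under both scalings, at 0.51 (limma adjusted p = 0.00535) with the median scaling. In SW780 it was 0.14 (limma adjusted p = 0.478) with the median scaling, against 0.24 as deposited, and with both lines averaged 0.32 (limma adjusted p = 0.0108).

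**Figure D4:**
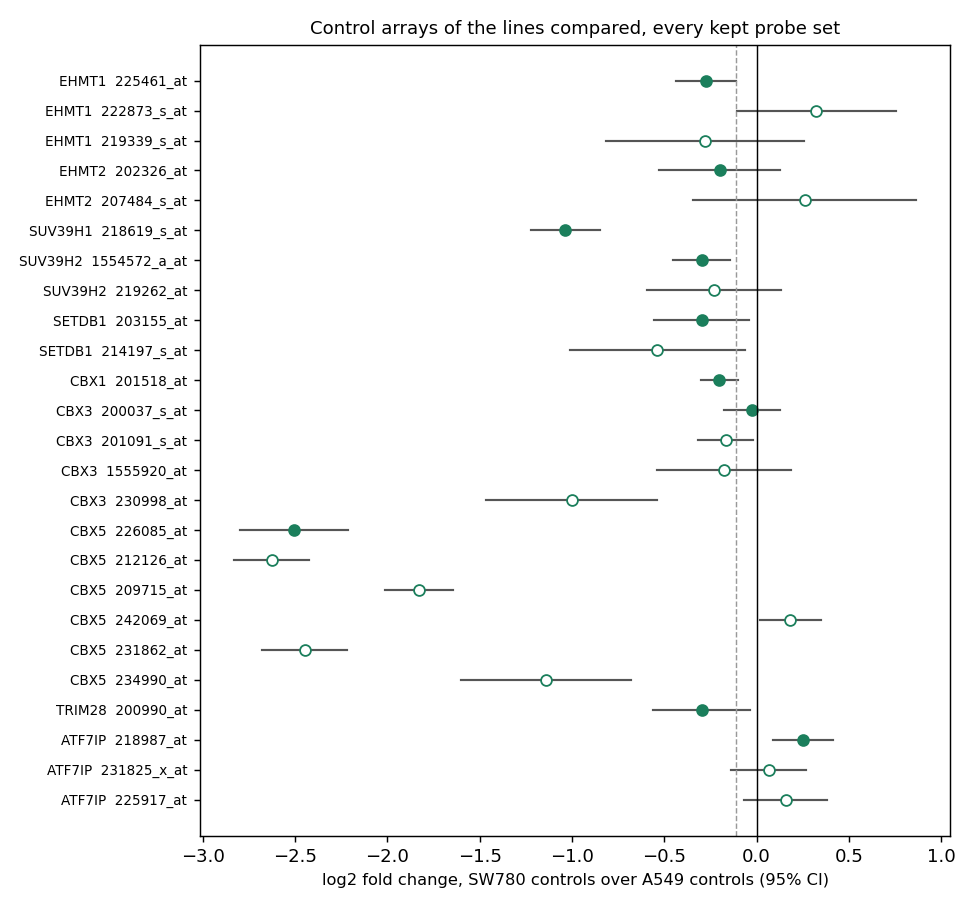
Log2 fold change of the SW780 control arrays over the A549 control arrays (x axis) for the 25 kept probe sets of the 10 genes (y axis), with 95% confidence intervals from limma. Filled points are the main probe sets and open points the others, and the dashed line is the median of all genes at -0.11. The CBX5 probe sets reach -2.63, with 242069_at at 0.18.

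Other genes of the pathway were read from lists. Of 16 further writers and partners 14 were tested. After siKDM3A 5.68% of all genes were higher in SW780 and 5.33% in A549. Of the 14, 1 was higher and 0 lower in each line. That gene, RIOX1, is not a writer but a histone and ribosomal protein oxygenase. It rose by 0.39 ± 0.07 in SW780 (limma adjusted p = 0.00284) and by 0.49 ± 0.07 in A549 (5.41e-04), and was lower with siFFluc than with siEGFP in A549 by 0.48 ± 0.08 (0.00408). PRDM2, a PR-domain methyltransferase gene, was lower with both lines averaged, at -0.22 ± 0.07 (limma adjusted p = 0.0444), as were 9.36% of all genes. The median of the list was -0.039 in SW780 and -0.029 in A549, against 0.027 and -0.020 over all genes.

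Of 33 genes of the HUSH silencing complex and other heterochromatin readers or HP1 partners 30 were tested. In SW780 3 were higher and 3 lower after siKDM3A, and in A549 2 were higher and 3 lower, against 11.8% and 11.7% of all genes called in either direction. The median of the list was 0.029 in SW780 and -0.030 in A549, against 0.027 and -0.020 over all genes. In SW780, CBX6, TRIM24 and MPHOSPH8 were higher and UHRF2, LBR and MORC2 lower. In A549, CBX6 and PPHLN1 were higher and UHRF2, ATRX and DNMT3B lower. UHRF2, which binds methylated H3K9 and DNA, fell by 0.29 ± 0.07 in SW780 (limma adjusted p = 0.0168) and by 0.39 ± 0.07 in A549 (0.00273). MPHOSPH8, the chromodomain subunit of HUSH, which cooperates with SETDB1, rose by 0.38 ± 0.10 in SW780 (limma adjusted p = 0.0298). It was the 1 gene of the list called for a different response, by 0.63 ± 0.14 for SW780 minus A549 (limma adjusted p = 0.0397). CBX6, a Polycomb chromodomain gene, was called higher after siKDM3A than in the pooled controls of each line. Its signal averaged 1678 with siKDM3A and 1308 in the controls of SW780, and 1133 and 1006 in A549. But it was lower with siFFluc than with siEGFP by 1.41 ± 0.10 in SW780 and 1.59 ± 0.10 in A549. With control siRNAs so far apart, its siKDM3A mean lay below that of siEGFP in each line. With both lines averaged, SP100 was higher, at 0.17 ± 0.05, and HMGA1 lower, at -0.28 ± 0.07, beside CBX6 and UHRF2. Without SW780 siFFluc replicate 1, LBR was not called in SW780, at -0.21 (limma adjusted p = 0.0513), while CBX6, TRIM24, MPHOSPH8, UHRF2 and MORC2 were called there when either siFFluc array was left out.

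Of 13 H3K9 demethylase genes, 2 were lower in SW780 and 1 in A549, against 6.15% and 6.35% of all genes. KDM3A fell in each line, and KDM1A (LSD1) was the other one called, at -0.33 ± 0.08 in SW780 (limma adjusted p = 0.0140). Its response was lower in SW780 than in A549 by 0.55 ± 0.11 (limma adjusted p = 0.0243). Beside the higher SUV39H2 signal, of 23 mitosis and replication genes 6 were higher and 0 lower after siKDM3A in each line, against 5.68% of all genes higher in SW780 and 5.33% in A549. The median of the list was 0.15 in SW780 and 0.12 in A549, against 0.027 and -0.020 over all genes. Without SW780 siFFluc replicate 2, 6 were higher and 2 lower in SW780. Between the control siRNAs, siFFluc against siEGFP, the same list had medians of similar size and the other sign, -0.089 in SW780 and -0.15 in A549, with 1 higher and 3 lower in SW780 and 0 higher and 1 lower in A549, and 9 of the 23 at an unadjusted p under 0.05 in each line. AURKB, the kinase that releases HP1 from mitotic chromatin by phosphorylating H3, rose by 0.47 ± 0.06 in SW780 (limma adjusted p = 5.36e-04) and by 0.36 ± 0.06 in A549 (0.00240). Between the lines 15 of the 23 were lower in SW780 and 4 higher, against 38.8% and 30.1% of all genes. The list median was -0.36, against -0.11 over all genes. The part of proliferation in the values of SUV39H2, SUV39H1 and CBX5 was not tested.

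The genes most like each member were those of highest Pearson r over the 12 arrays after each line was centred on its mean, which is a description over arrays that share their groups and scaling. SUV39H2 was most like BIVM (r = 0.941, n = 12 arrays) and NCAPG (r = 0.940). SUV39H1 was most like CYP27B1 (r = 0.890) and ZEB1 (r = 0.877). CBX5 was most like MMAB (r = 0.987) and DNAJC7 (r = 0.965), and TRIM28 most like PTOV1 (r = 0.977) and APMAP (r = 0.944). For CBX1 they were TEAD1 and CYB5R4, for CBX3 ZNF350 and TFDP1, for EHMT1 PRP4K and PRRC2C, for EHMT2 TMED3 and FPGS, for SETDB1 LITATS1 and SORCS1, and for ATF7IP GEMIN7 and DENND1B, with r between 0.847 and 0.963. On SW780 siFFluc replicate 1 CBX5 read 416.4, against 665.6 to 837.2 on the other SW780 arrays. TRIM28 read 6913.0 there, against 3914.8 to 4563.2. The r values of these genes can rest largely on that array, and they were not computed without it.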

How the data were processed

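The authors deposited MAS5 signal intensities on a linear scale for 12 arrays, per the submitters' processing notes, which name MAS5. Its version is not given here. Each array's mean was 500.1 once the top and bottom 2% of values were trimmed, so arrays had been scaled to 1 target, and the number of arrays limits the precision. The 62 Affymetrix control probe sets were removed, leaving 54613, of which 41091 had 1 gene symbol, 1801 several and 11721 none, and symbols were updated by gene number through a RefSeq table of GRCh38.p14 (41037 matched).

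Probe sets at or above the 40th percentile of mean signal (33.6) were kept (32768), the one of highest mean stood for each gene (14061), and log2(signal + 16) was fitted with 6 group means by limma 3.58.1 (R 4.3.3), the prior variance following a trend. Controls were the average of the siFFluc and siEGFP group means. There were 7 comparisons, each adjusted by Benjamini-Hochberg over all genes, and each kept probe set was also fitted. Alternatives changed the pseudocount, filter, scaling, probe set choice, prior, control and arrays, or added a replicate block. The procedure was tested on simulated data. The genes, the lists and the named gene rule were chosen with earlier results of these data known. Named genes were KDM3A, the 10 members, up to 6 called genes per list and comparison by smallest p, and the 2 genes most like each member. Figures were drawn with matplotlib 3.10.9.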

Additional observations from a re-analysis of the deposited data

Results flagged for a closer look

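In 20 groups of 4 control arrays (10 genes in each line), Dixon's criterion set 1 array apart in 2 groups, and chance does so in about 1 in 20 groups. SUV39H1 read 447.6 on SW780 siFFluc replicate 1, against 439.0 to 440.4 on the other 3 SW780 control arrays, a gap small beside the difference between lines. CBX5 read 4469.4 on A549 siFFluc replicate 2, against 3695.1 to 3757.7 on the other 3 A549 control arrays, and without it the change of CBX5 after siKDM3A in A549 was 0.34 (limma adjusted p = 0.306).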

How the results depend on the processing

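Over 70 pairs of gene and comparison and up to 25 alternatives, 42 pairs were never called, and of the 10 called as reported, 2 were called in every alternative run for them, CBX5 and SUV39H1 between the lines. In A549, 1 member and 11.7% of all genes were called after siKDM3A as reported. The count was 2 with the filter at the 60th percentile (17% of all genes) and 3 with arrays of the line only (18.6%). It was 0 with the mean of all kept probe sets (8.2%) and with probe sets ending in _at only (10.9%). No trend in the prior variance (6.25%) and siEGFP as the only control (8.04%) also gave 0. In SW780, 0 members and 11.8% of all genes were called as reported. The count was 1 with a pseudocount of 64 (12% of all genes), quantile normalization (12.1%), median scaling (10.9%) or siFFluc as the only control (14.2%). It was 2 with the filter at the 60th percentile (16.6%). With both lines averaged, 1 member and 18.2% of all genes were called as reported. The count was 2 with a pseudocount of 64 (18.9% of all genes), the 60th percentile (25.4%) or quantile normalization (18.5%). It was 0 with probe sets ending in _at only (16.6%). With siEGFP as the only control (12.7%) the 1 called was CBX1 in place of SUV39H2. Between siFFluc and siEGFP in SW780, 0 members and 5.57% of all genes were called as reported. The count was 1 with a pseudocount of 1 (5.66% of all genes), the 60th percentile (8.28%) or the mean of probe sets (3.73%). Between the lines, 8 members and 68.9% of all genes were called as reported. The count was 3 under median scaling (67.6% of all genes) and 4 with siFFluc as the only control (60.8%). The shares of all genes also moved when 1 array was left out. Leaving out 1 array at a time gave 0 to 3 in A549, 0 to 2 in SW780, 1 to 4 in both lines averaged, 0 to 1 for the difference in response, 0 to 3 for siFFluc against siEGFP in SW780 and 6 to 7 between the lines.

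Replicate numbers did not pair the arrays, with correlations of deviations between -0.0296 and 0.0189. With a replicate block the count was 2 in SW780 (11.4% of all genes) and 2 with both lines averaged (18.3%). It was 1 for siFFluc against siEGFP in SW780 (6.59%) and 7 between the lines (68.8%).

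Signs turned only for values that were not called as reported. With the mean of probe sets EHMT1 was 0.033 and EHMT2 0.51 in A549, ATF7IP 0.086 in SW780, and EHMT2 0.19 with both lines averaged and 0.030 between the lines. With median scaling EHMT2 was 0.098, SUV39H1 0.018, SETDB1 0.032 and ATF7IP 0.054 in A549, SUV39H1 -0.054, CBX1 -0.023 and CBX5 -0.096 in SW780, and CBX3 0.13 between the lines. With quantile normalization EHMT2 was 0.048, CBX1 -0.051 and TRIM28 -0.078 in A549, and ATF7IP 0.0088 in SW780. With probe sets ending in _at only, CBX3 was -0.12 in SW780 and -0.032 with both lines averaged. With siEGFP only, TRIM28 was -0.035 in A549 and 8.59e-04 for the difference in response, CBX5 -0.24 in SW780 and CBX3 0.016 between the lines. With siFFluc only, EHMT2 was 0.092 and CBX1 -0.058 in A549, CBX1 -0.035 and ATF7IP 0.090 in SW780, SUV39H1 0.0063, CBX1 -0.047 and ATF7IP 0.018 with both lines averaged, and CBX5 0.041 for the difference in response.

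With 1 array left out, the ranges that crossed 0 in A549 were -0.22 to 0.11 for EHMT2, -0.27 to 0.0047 for SUV39H1 and -0.021 to 0.027 for TRIM28. In SW780 they were -0.15 to 0.014 for EHMT1, -0.059 to 0.15 for SUV39H1, -0.23 to 0.091 for SETDB1, -0.21 to 0.22 for CBX5, -0.38 to 0.0074 for TRIM28 and -0.068 to 0.052 for ATF7IP. With both lines averaged they were -0.11 to 0.025 for SUV39H1 and -0.19 to 0.0051 for TRIM28, and between the lines -0.090 to 0.040 for CBX3. TRIM28 ranged over -0.38 to 0.0045 for the difference in response and -0.082 to 0.70 for siFFluc against siEGFP in SW780. The difference in response and siFFluc against siEGFP gave 24 further pairs that no setting called, of which 14 turned sign in some alternative. The cause of these turns was not tested. Probe sets and list genes without a siFFluc array of SW780 were examined after seeing the data.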
